A study of Mus musculus with 4 samples.

Results

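The response of mouse dendritic cells to the ligands of the chemokine receptor CCR7 was followed in cells that had received si-Lnc-Dpf3, an siRNA that carries the name of the long non-coding transcript lnc-Dpf3. The comparison set 1 library, si-Lnc-Dpf3/CCR7L, against 1 library, si-Lnc-Dpf3/Med, and so used 2 of the 4 libraries of the study. Levels are in FPKM (fragments per kilobase of transcript per 1e6 fragments), and 11041 of the 18021 genes in the table were kept because they averaged 1 FPKM or more over the 4 libraries. All cells came from C57BL/6 mice, were grown for 5 days in GM-CSF and IL4, and were then matured with 100 ng/ml of the bacterial lipopolysaccharide LPS for 24 h before transfection. The si-Lnc-Dpf3/CCR7L cells then spent 12 h with CCL19 and CCL21, which are the ligands of CCR7, and the si-Lnc-Dpf3/Med cells had none. In si-NC/CCR7L and si-NC/Med, cells that received the siRNA si-NC were treated in the same 2 ways. These libraries share no sample with the si-Lnc-Dpf3 pair and serve as the comparison. With 1 library in each group no ratio has a replicate, no test was possible and no p-value is given. The knockdown itself could not be followed, since lnc-Dpf3 was not analysed here.

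CCR7 is a receptor coupled to G proteins that guides mature dendritic cells from tissues into lymph nodes. LPS maturation raises CCR7, costimulatory proteins and surface MHC class II, the molecules on which dendritic cells show peptides to CD4+ T cells. Transcription of class II genes depends on CIITA, a coactivator with no DNA contact of its own, which docks on the RFX complex at the X box and on NF-Y at the Y box. lnc-Dpf3 has been described as an RNA that binds the transcription factor HIF-1α, an activator of glycolytic genes. The genes of glycolysis and the other HIF targets are therefore among the gene lists described.

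Before the values, the promoters of genes that return below are shown as the 250 bases before a RefSeq transcription start (GRCm38.p6). In the first 4, from class II genes of chromosome 17, capitals mark GCAAC, the core of the X box, and CTGATTGG, the Y box.
H2-Aa, chr17:34287824-34288073, minus strand: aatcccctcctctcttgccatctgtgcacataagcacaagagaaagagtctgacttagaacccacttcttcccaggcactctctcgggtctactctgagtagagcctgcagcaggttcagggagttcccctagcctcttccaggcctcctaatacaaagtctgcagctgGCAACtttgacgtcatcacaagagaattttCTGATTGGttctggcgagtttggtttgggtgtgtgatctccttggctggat
H2-Eb1, chr17:34305617-34305866, plus strand: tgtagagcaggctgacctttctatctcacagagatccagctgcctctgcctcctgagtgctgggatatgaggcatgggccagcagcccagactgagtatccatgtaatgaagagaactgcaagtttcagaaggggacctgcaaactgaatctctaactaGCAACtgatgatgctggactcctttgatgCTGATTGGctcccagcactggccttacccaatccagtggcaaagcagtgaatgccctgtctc
H2-Eb2, chr17:34325425-34325674, plus strand: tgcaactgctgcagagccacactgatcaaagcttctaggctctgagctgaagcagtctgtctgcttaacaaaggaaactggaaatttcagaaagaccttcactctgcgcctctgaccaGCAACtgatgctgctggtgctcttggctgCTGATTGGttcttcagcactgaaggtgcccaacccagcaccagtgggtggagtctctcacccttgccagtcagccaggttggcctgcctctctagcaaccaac
H2-Oa, chr17:34092129-34092378, plus strand: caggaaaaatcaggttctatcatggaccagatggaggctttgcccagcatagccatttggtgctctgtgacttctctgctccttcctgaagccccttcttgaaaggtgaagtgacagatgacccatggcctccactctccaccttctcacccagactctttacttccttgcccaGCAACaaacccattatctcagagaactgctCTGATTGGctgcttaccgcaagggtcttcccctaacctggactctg
Between the capitals lie 25 bases in H2-Aa, 24 in H2-Eb1, 24 in H2-Eb2 and 25 in H2-Oa. The gene span of H2-Eb2 begins at 34325503, inside its window and before the capitals, so a start within the gene was used there. Searched on both strands, CTGATTGG stands in 3.83% and GCAAC in 29.9% of 32851 promoter windows of this length. The ordered pair with 20 to 40 bases between stands in 32 of them, or 0.0974%, a distance chosen after the sequences had been seen. Of the 17 class II genes described below, 13 had a window, and 4 of those held the pair. No window was searched for H2-Ab1, Ciita, Cd74 and Rfxap. In the other pair of promoters, from the apolipoprotein L genes Apol7b and Apol7c of chromosome 15, capitals mark TATATAA, the letters of a TATA box, which 3.04% of windows hold on either strand.
Apol7b, chr15:77447461-77447710, minus strand: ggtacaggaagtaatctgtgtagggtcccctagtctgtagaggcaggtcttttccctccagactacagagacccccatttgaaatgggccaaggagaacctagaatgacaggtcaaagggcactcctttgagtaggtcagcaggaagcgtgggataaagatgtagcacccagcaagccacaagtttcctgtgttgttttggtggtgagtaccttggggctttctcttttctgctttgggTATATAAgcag
Apol7c, chr15:77533316-77533565, minus strand: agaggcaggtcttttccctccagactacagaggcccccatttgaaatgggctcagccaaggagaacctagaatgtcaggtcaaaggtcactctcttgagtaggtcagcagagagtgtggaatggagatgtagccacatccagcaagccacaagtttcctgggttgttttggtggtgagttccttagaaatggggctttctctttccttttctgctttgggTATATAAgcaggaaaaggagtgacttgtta
These windows are near copies, with 199 of 212 aligned bases identical (93.9%). The TATATAA begins 11 bases before the start used in Apol7b and 30 bases before the start used in Apol7c. The gene span of Apol7c reaches to 77533335, inside its window, while that of Apol7b ends at 77447460, just outside its own. The distances therefore depend on the start chosen and cannot be compared between these genes. A match of letters describes the sequence and is not evidence of binding.

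The libraries were close in depth. Estimated reads, from the steps between low FPKM values, ran from 19.6 to 20.2 in units of 1e6, and 10997 to 11075 genes had at least 1 FPKM. For the median transcript of 2819 bases, counting error alone at a 95% level reaches a ratio of 1.45-fold at 1 FPKM, 1.12-fold at 10 FPKM and 1.04-fold at 100 FPKM. Summed FPKM was 500607 in si-Lnc-Dpf3/CCR7L and 474610 in si-Lnc-Dpf3/Med, against 494419 in si-NC/CCR7L and 492522 in si-NC/Med. The cells carried the labelled identity in part. Of 15 dendritic cell markers 13 passed the filter, among them Fscn1, Ccr7, Irf8, Sirpa, Flt3 and Zbtb46, while Xcr1 and Clec9a, which mark a conventional subset, stayed below 1 FPKM. Monocyte and granulocyte RNA was present too, with 14 of 16 macrophage and monocyte markers and 17 of 18 neutrophil markers kept. Summed FPKM of the neutrophil markers was 13979 in si-Lnc-Dpf3/CCR7L and 13843 in si-Lnc-Dpf3/Med, against 9775 in si-NC/CCR7L and 9404 in si-NC/Med, so it differed between the siRNAs and little between stimulations. In bulk RNA, fewer cells of a type and less RNA per cell cannot be told apart.

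The si-Lnc-Dpf3/Med library stood apart from the other 3 in how its values followed transcript length. In the quintile of genes with the longest transcripts, 4560 bases or more, its log2(FPKM + 1) had a median deviation of 0.10 from the mean of the 4 libraries, against −0.04 in si-Lnc-Dpf3/CCR7L, −0.03 in si-NC/CCR7L and −0.03 in si-NC/Med. In the shortest quintile, 132 to 1610 bases, the deviations were −0.06 in si-Lnc-Dpf3/Med, 0.04 in si-Lnc-Dpf3/CCR7L, 0.01 in si-NC/CCR7L and 0.02 in si-NC/Med. The log2 ratio of si-Lnc-Dpf3/CCR7L over si-Lnc-Dpf3/Med therefore ran downward with length, with medians of 0.10, 0.03, −0.02, −0.06 and −0.14 from the shortest to the longest quintile. The same ratio in si-NC cells had medians between −0.02 and −0.01 in all 5 quintiles. Across 10863 genes, which are not independent, Spearman's rho with length was −0.465 under si-Lnc-Dpf3 and 0.011 under si-NC, and with GC content 0.274 and −0.219. Leaving out the si-Lnc-Dpf3/Med library would remove the comparison itself, so list medians are also given with the trend of length and then GC content removed from the log2 ratios.

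**Figure D1:**
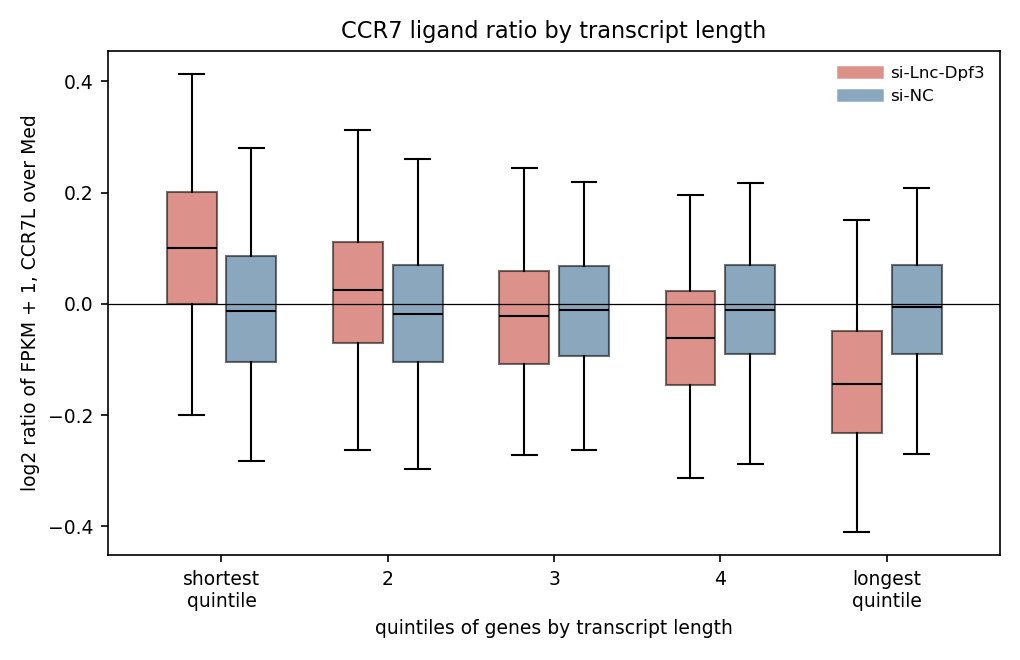
Log2 ratio of FPKM + 1, CCR7L over Med (vertical axis), for quintiles of the 10863 genes with a transcript length, from the shortest to the longest (horizontal axis), under si-Lnc-Dpf3 (red) and si-NC (blue). Lines in the boxes are medians, boxes span the quartiles and whiskers the 5th to 95th percentiles over genes; the red medians run from 0.10 to −0.14 and the blue ones stay between −0.02 and −0.01.

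Few genes differed strongly between si-Lnc-Dpf3/CCR7L and si-Lnc-Dpf3/Med. Among the higher genes were apolipoprotein L genes, class II genes and the enolase gene Eno3, and among the lower ones Hepacam2, Calcb, Satb1 and the receptor gene Pdcd1. Ratios are log2 of (FPKM + 1) in si-Lnc-Dpf3/CCR7L over (FPKM + 1) in si-Lnc-Dpf3/Med, a scale on which genes with low FPKM appear to change less than they do. At least 2-fold higher were 21 genes (0.19% of those kept) and at least 2-fold lower 32 (0.29%). At 1.5-fold the counts were 122 higher (1.1%) and 142 lower (1.29%). With each library scaled to an equal FPKM total, the split moved to 13 higher and 35 lower at 2-fold, and to 92 higher and 188 lower at 1.5-fold. The middle 95% of all kept genes lay between −0.43 and 0.42, with a median of −0.02. For si-NC cells the counts were 21 higher (0.19%) and 29 lower (0.263%) at 2-fold, and 83 higher (0.752%) and 126 lower (1.14%) at 1.5-fold.

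Many of the genes called under si-Lnc-Dpf3 were also called under si-NC. At 2-fold higher, 15 genes were shared, 71.4% of each list of 21. At 2-fold lower, 18 were shared, 56.2% of the si-Lnc-Dpf3 list and 62.1% of the si-NC list. At 1.5-fold, 61 higher genes were shared, 50% of the si-Lnc-Dpf3 list and 73.5% of the si-NC list, and 84 lower genes, 59.2% and 66.7%. Of the 122 genes at least 1.5-fold higher under si-Lnc-Dpf3, 117 also had a positive ratio in si-NC cells, where 46.1% of all genes did. Their median ratio was 0.76 in si-Lnc-Dpf3 cells and 0.58 in si-NC cells. Of the 142 genes at least 1.5-fold lower, 137 had a negative ratio in si-NC cells, where 53.4% of all genes did, with medians of −0.76 under si-Lnc-Dpf3 and −0.69 under si-NC. Some of the genes in these counts passed the filter through the libraries where they are high. Examples are Gbp2b on the higher side and Pdcd1, Gls2 and Tmem151b on the lower side. Over all 11041 kept genes, Pearson's r between both ratios was 0.602 and Spearman's rho 0.33. Of the 15 genes named as highest, 14 ranked within the first 50 under si-NC, and of the 15 lowest, 11 did. Among them were Tmem254c and Tmem254b, near copies whose values are uncertain, which also count as shared genes at 2-fold.

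**Figure D2:**
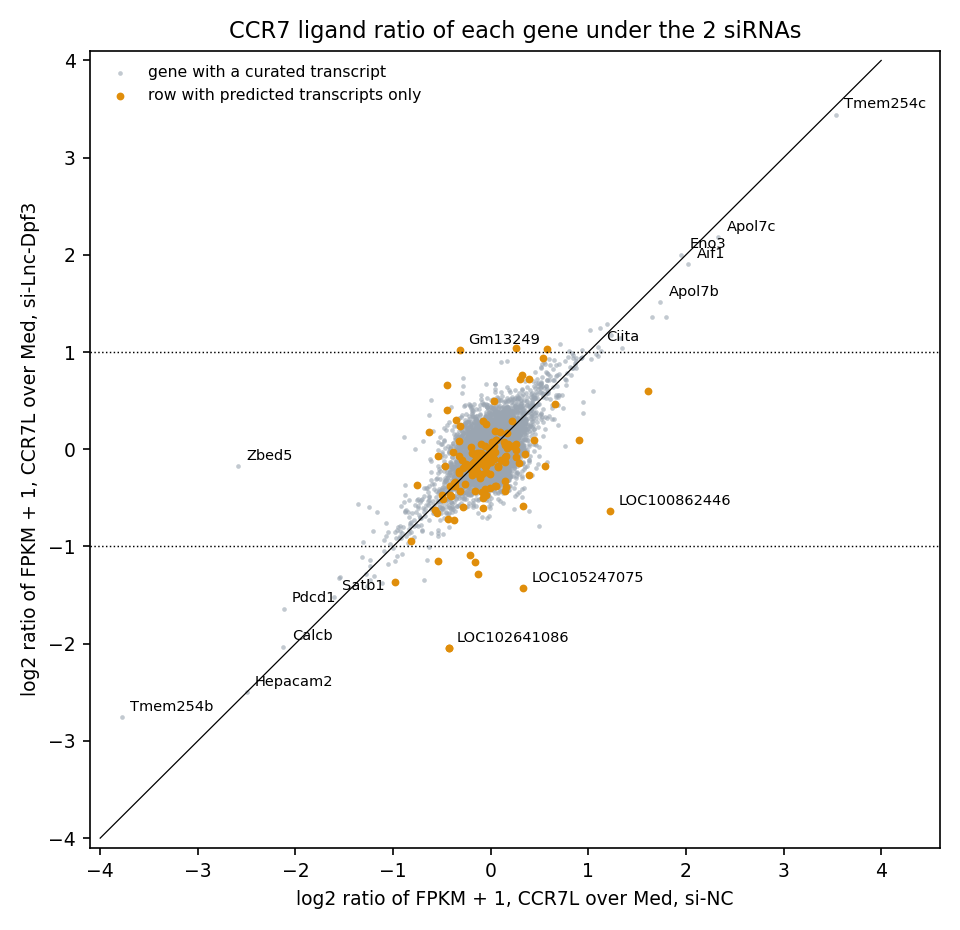
Each point is 1 of 11041 genes: the log2 ratio of FPKM + 1, CCR7L over Med, in si-Lnc-Dpf3 cells (vertical axis) against that in si-NC cells (horizontal axis). The solid line marks equal ratios and the dotted lines 2-fold; Apol7c, Eno3 and Hepacam2 lie near the solid line, and orange rows with predicted transcripts only make up 9 of the 16 genes whose ratios differ by at least 2-fold.

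Apolipoprotein L proteins form a family encoded in a cluster on chromosome 15, and 12 of the 13 family members searched were in the table. Apol7c stood at 341 FPKM in si-Lnc-Dpf3/CCR7L and 74.2 FPKM in si-Lnc-Dpf3/Med, with 368 FPKM in si-NC/CCR7L and 72.3 FPKM in si-NC/Med. Both CCR7L libraries were well above both Med libraries. The log2 ratio was 2.18 under si-Lnc-Dpf3 and 2.33 under si-NC, and counting error alone puts the si-Lnc-Dpf3 FPKM ratio of 4.59 between 4.42 and 4.78. Such intervals are exact binomial at 95% on estimated reads and cover counting error only. They are approximate, because the estimated reads were not whole for many values. Apol7b, at chr15:77422209-77447460, had 4.91 FPKM in si-Lnc-Dpf3/CCR7L and 1.07 FPKM in si-Lnc-Dpf3/Med, against 4.84 and 0.75 FPKM in si-NC/CCR7L and si-NC/Med. Apol7c lies in the same cluster at chr15:77524852-77533335, and the promoter windows of both genes are near copies. Their transcripts were not aligned, but reads could be split between them, so the level of Apol7b is uncertain. Apol10b had 4.97 FPKM in si-Lnc-Dpf3/CCR7L and 1.33 FPKM in si-Lnc-Dpf3/Med, against 6.83 FPKM in si-NC/CCR7L and 1.25 FPKM in si-NC/Med. Its ratio was 1.36 under si-Lnc-Dpf3 and 1.80 under si-NC. Apol9a and Apol9b, close relatives of each other, had ratios of 0.30 and 0.23 under si-Lnc-Dpf3, and −0.03 and −0.01 under si-NC. The other 7 members in the table did not pass the filter; Apol7a was at 1.41 FPKM in si-Lnc-Dpf3/CCR7L and 0.28 FPKM in si-Lnc-Dpf3/Med, against 1.90 and 0.27 FPKM in si-NC/CCR7L and si-NC/Med. Apol7b passed the filter through its CCR7L libraries, so the count of this family is not set against the background.

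The class II list had the most members at 1.5-fold of all lists examined. Of its 17 genes, all kept, 8 were at least 1.5-fold higher in si-Lnc-Dpf3/CCR7L than in si-Lnc-Dpf3/Med (1.1% of all genes were) and none was lower by that much. In si-NC cells 5 were at least 1.5-fold higher (0.752% of all genes were). The median ratio was 0.57 under si-Lnc-Dpf3 and 0.33 under si-NC, beside −0.02 and −0.01 over all genes. With the length and GC trend removed, the medians were 0.47 under si-Lnc-Dpf3 and 0.31 under si-NC.

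Ciita (chr16:10480014-10531064), the master coactivator of class II genes, had 20.5 FPKM in si-Lnc-Dpf3/CCR7L and 9.34 FPKM in si-Lnc-Dpf3/Med, against 21.8 FPKM in si-NC/CCR7L and 9.65 FPKM in si-NC/Med. The values of the siRNAs lay close to each other in each condition, and the ratio was 1.05 under si-Lnc-Dpf3 and 1.10 under si-NC. The subunits of the RFX complex that docks CIITA had ratios nearer 0. They were 0.13 for Rfx5, 0.01 for Rfxank and −0.15 for Rfxap under si-Lnc-Dpf3, and 0.25, 0.19 and −0.12 in that order of genes under si-NC.

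Among the peptide-binding chains, H2-Ab1 had 390.3 FPKM in si-Lnc-Dpf3/CCR7L and 206 FPKM in si-Lnc-Dpf3/Med, against 423 FPKM in si-NC/CCR7L and 269 FPKM in si-NC/Med. H2-Aa, its partner, had 508 FPKM in si-Lnc-Dpf3/CCR7L and 315 FPKM in si-Lnc-Dpf3/Med, against 540.4 FPKM in si-NC/CCR7L and 378 FPKM in si-NC/Med. H2-Eb1 had 345 FPKM in si-Lnc-Dpf3/CCR7L and 189 FPKM in si-Lnc-Dpf3/Med, against 364 FPKM in si-NC/CCR7L and 229 FPKM in si-NC/Med. For these 3 chains, and for Cd74, the lowest library was si-Lnc-Dpf3/Med and the next si-NC/Med, while the CCR7L libraries lay closer together. The transcripts of H2-Ab1 and Cd74, of 1212 and 1317 bases, lie in the shortest quintile, which was low in si-Lnc-Dpf3/Med. That library also had the lowest summed FPKM. How much of the low values goes with length or with the FPKM totals was not tested. The ratio of H2-Ab1 was 0.92 under si-Lnc-Dpf3 and 0.65 under si-NC, that of H2-Aa 0.69 and 0.51, and that of H2-Eb1 0.86 and 0.67. H2-Eb2, a sparse class II gene of the same cluster, had 5.62 FPKM in si-Lnc-Dpf3/CCR7L and 2.44 FPKM in si-Lnc-Dpf3/Med, against 5.29 and 2.30 FPKM in si-NC/CCR7L and si-NC/Med, a ratio of 0.94 under si-Lnc-Dpf3 and 0.93 under si-NC.

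Cd74 encodes the invariant chain that fills the class II groove until a peptide replaces it. It had 2462 FPKM in si-Lnc-Dpf3/CCR7L and 1516 FPKM in si-Lnc-Dpf3/Med, against 2500 FPKM in si-NC/CCR7L and 1856 FPKM in si-NC/Med. The ratio was 0.70 under si-Lnc-Dpf3 and 0.43 under si-NC. The editors H2-DMa and H2-DMb2, chains of the DM complex that trades the invariant chain remnant for peptide, had ratios of 0.52 and 1.02 under si-Lnc-Dpf3 and 0.19 and 0.93 under si-NC. H2-DMb1 and H2-DMb2 are paralogs whose reads could be divided between them, and H2-DMb1 had a ratio of 0.57 under si-Lnc-Dpf3 and 0.33 under si-NC. Ifi30, a lysosomal reductase that opens disulfide bonds of antigens, had 225 FPKM in si-Lnc-Dpf3/CCR7L and 134 FPKM in si-Lnc-Dpf3/Med, against 228 FPKM in si-NC/CCR7L and 158 FPKM in si-NC/Med. Below 0 under si-Lnc-Dpf3 were H2-Ob (−0.27), a chain of the DM inhibitor DO, Rfxap, and Marchf1 (−0.13), a ubiquitin ligase that removes class II from the surface. H2-Oa, the other chain of DO, had a ratio of 0.38, and Ctss, a protease that trims the invariant chain, had 0.09.

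**Figure D3:**
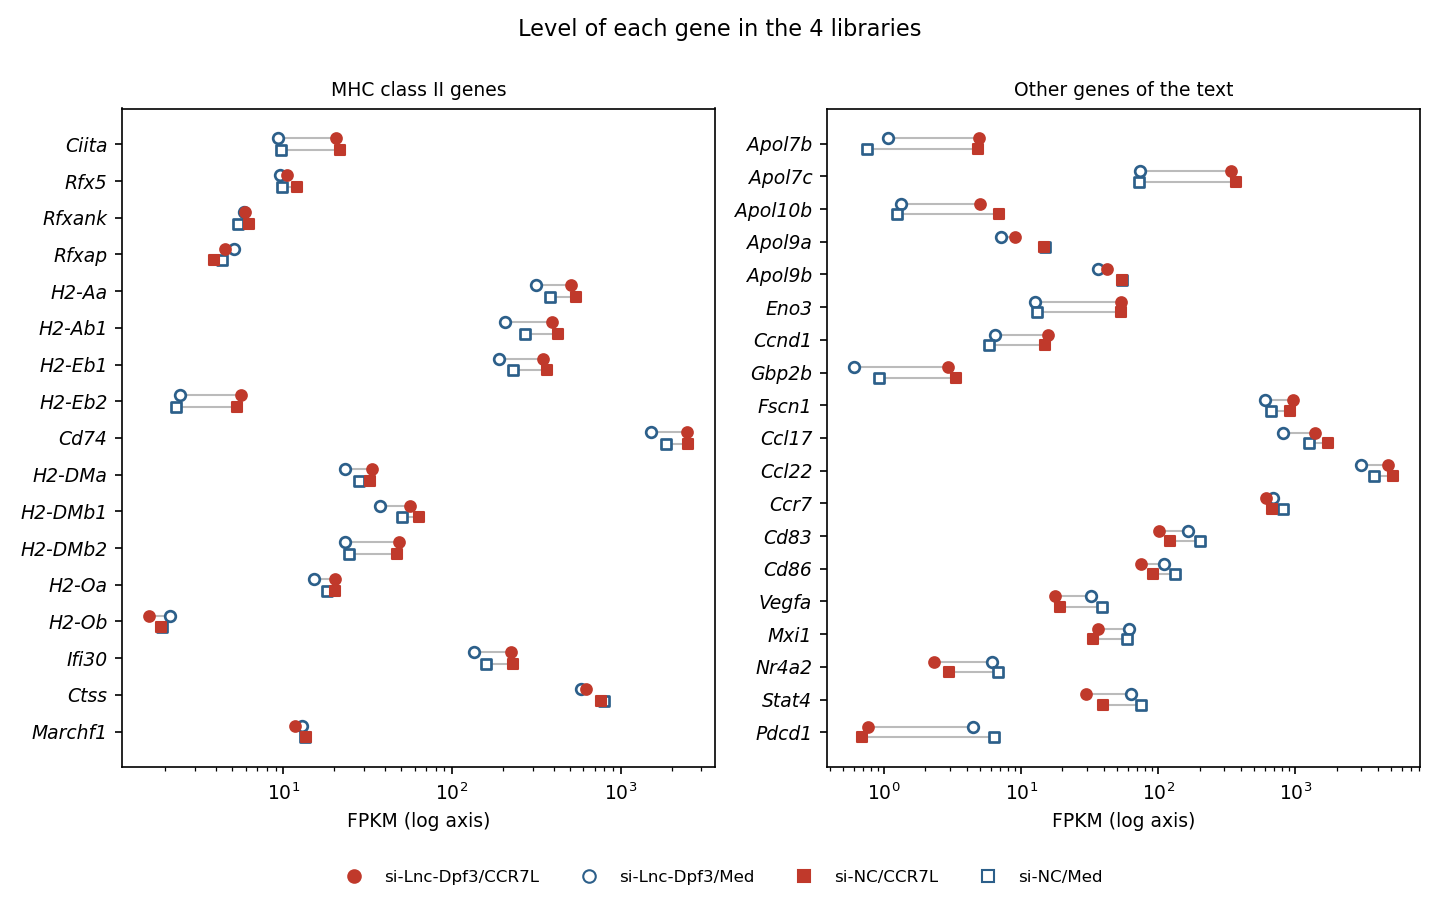
FPKM (log axis) of class II genes (left) and of other genes described (right) in si-Lnc-Dpf3/CCR7L (filled circles), si-Lnc-Dpf3/Med (open circles), si-NC/CCR7L (filled squares) and si-NC/Med (open squares); a grey line joins the pair of each siRNA. For Ciita the CCR7L libraries sit at 20.5 and 21.8 FPKM and the Med libraries at 9.34 and 9.65 FPKM, and for Cd83 and Pdcd1 the order is turned round.

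MHC class I, which shows peptides to CD8+ T cells, and the immunoproteasome that cuts them had no member of 22 at 1.5-fold in either direction. Over all genes 1.1% were higher by that much under si-Lnc-Dpf3 and 1.29% lower, so a count of 0 is near those shares. Above 0 were 21 of the 22 under si-Lnc-Dpf3 (44.3% of all genes were) and 13 under si-NC (46.1% of all genes were), with medians of 0.18 and 0.04, and 0.12 under si-Lnc-Dpf3 with the trend removed. The largest ratios belonged to inducible subunits. Psmb9 had 239.7 FPKM in si-Lnc-Dpf3/CCR7L and 174 FPKM in si-Lnc-Dpf3/Med, a ratio of 0.46, against 256 FPKM in si-NC/CCR7L and 219 FPKM in si-NC/Med, a ratio of 0.22. Psmb8 and the activator subunit Psme2 followed at 0.42 and 0.40 under si-Lnc-Dpf3, and 0.24 and 0.25 under si-NC. The standard proteasome had 25 of 26 subunits above 0 under si-Lnc-Dpf3 and 24 under si-NC, with medians of 0.12 and 0.09, and none at 1.5-fold. With the trend removed the order of the medians turned, to 0.06 under si-Lnc-Dpf3 and 0.08 under si-NC.

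Costimulatory and maturation genes differed in both directions, with 2 of 22 kept genes at least 1.5-fold higher (1.1% of all genes were) and 1 lower (1.29% of all genes were). In si-NC cells 0 were higher by that much (0.752% of all genes were) and 2 lower (1.14% of all genes were). The median under si-Lnc-Dpf3 was 0.04, and it was −0.01 with equal FPKM totals. The chemokines CCL17 and CCL22, both ligands of CCR4 on T cells, were the higher genes. Ccl22 had 4714 FPKM in si-Lnc-Dpf3/CCR7L and 3040.1 FPKM in si-Lnc-Dpf3/Med, against 5145 FPKM in si-NC/CCR7L and 3746 FPKM in si-NC/Med, and its gain of 1674 FPKM was the largest of any gene. Ccl17 had 1402 FPKM in si-Lnc-Dpf3/CCR7L and 808 FPKM in si-Lnc-Dpf3/Med, against 1727 FPKM in si-NC/CCR7L and 1257 FPKM in si-NC/Med, so the library without ligand under si-Lnc-Dpf3 was lowest. The transcript of Ccl17, of 514 bases, lies in the shortest quintile, which was low in that library. How much of the low value goes with length was not tested. The ratio of Ccl17 was 0.79 under si-Lnc-Dpf3 and 0.46 under si-NC, and that of Cd40, the receptor for T cell help, 0.53 and 0.29. Cd83, a maturation marker that stabilises surface class II, was lower: 101 FPKM in si-Lnc-Dpf3/CCR7L and 165 FPKM in si-Lnc-Dpf3/Med, against 122 FPKM in si-NC/CCR7L and 200.1 FPKM in si-NC/Med. The ratio of Cd83 was −0.71 under both siRNAs. The CD28 ligands Cd86 and Cd80 had ratios of −0.53 and −0.39 under si-Lnc-Dpf3, and −0.54 and −0.35 under si-NC.

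Ccr7 itself was at 615 FPKM in si-Lnc-Dpf3/CCR7L and 685 FPKM in si-Lnc-Dpf3/Med, against 681 FPKM in si-NC/CCR7L and 808 FPKM in si-NC/Med. Its ratio was −0.16 under si-Lnc-Dpf3 and −0.25 under si-NC. The list of trafficking receptors, Ccr7 among them, had no member of 18 at 1.5-fold under si-Lnc-Dpf3 and 1 lower under si-NC, Cxcr4 at −0.70. Over all genes 1.1% were higher by that much and 1.29% lower under si-Lnc-Dpf3, and 1.14% lower under si-NC. Counts of 0 or 1 in this list and in the lists that come next are near those shares. Under si-Lnc-Dpf3 the lowest ratios were −0.55 for S1pr1, which guides cells along gradients of sphingosine phosphate, and −0.52 for Cxcr4, the receptor of CXCL12. Of 28 genes of CCR7 signalling, 1 was at least 1.5-fold lower: Pik3cg, the catalytic subunit of the phosphoinositide kinase driven by G proteins. Pik3cg had 22.1 FPKM in si-Lnc-Dpf3/CCR7L and 35.5 FPKM in si-Lnc-Dpf3/Med, against 23.7 FPKM in si-NC/CCR7L and 35.3 FPKM in si-NC/Med. Its ratio was −0.66 under si-Lnc-Dpf3 and −0.56 under si-NC. Among 32 actin and migration genes, Fscn1 alone reached 1.5-fold. Fscn1, the fascin that bundles actin in the long processes of mature dendritic cells, had 956 FPKM in si-Lnc-Dpf3/CCR7L and 596 FPKM in si-Lnc-Dpf3/Med, against 919.9 FPKM in si-NC/CCR7L and 665 FPKM in si-NC/Med, a ratio of 0.68 under si-Lnc-Dpf3 and 0.47 under si-NC. Over that list the median was 0.02, and −0.06 with equal FPKM totals. Integrins with 21 genes and matrix metalloproteinases and their inhibitors with 14 had none at 1.5-fold. Itga4 and Itga6 stood at −0.55 and −0.58 under si-Lnc-Dpf3, and at −0.22 and −0.34 under si-NC. F11r, a junction adhesion molecule, had ratios of 0.58 and 0.42 and the sheddase Adam8 of 0.55 and 0.44. Itga4 has a transcript of 9767 bases, in the longest quintile, which was high in si-Lnc-Dpf3/Med. The integrin median under si-Lnc-Dpf3 was −0.03, and 0.02 with the length and GC trend removed.

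Of 26 genes of glycolysis and lactate handling, 1 was at least 1.5-fold higher under si-Lnc-Dpf3 (1.1% of all genes were) and none lower. Eno3 (chr11:70653125-70662513), the enolase isoform best known from muscle, had 53.1 FPKM in si-Lnc-Dpf3/CCR7L and 12.5 FPKM in si-Lnc-Dpf3/Med, against 53.2 FPKM in si-NC/CCR7L and 13.0 FPKM in si-NC/Med. The values of the siRNAs all but coincide, with ratios of 2.0 and 1.95. The other 25 genes had ratios between −0.25 (Slc2a3, a glucose transporter) and 0.28 (Pfkm, a phosphofructokinase, and Pfkfb3, which makes its activator). Pfkfb3 had 111 FPKM in si-Lnc-Dpf3/CCR7L and 91.3 FPKM in si-Lnc-Dpf3/Med, against 125 FPKM in si-NC/CCR7L and 101 FPKM in si-NC/Med, a ratio of 0.28 under si-Lnc-Dpf3 and 0.30 under si-NC. Above 0 were 23 of 26 under si-Lnc-Dpf3 (44.3% of all genes were) and 17 under si-NC (46.1% of all genes were). The medians were 0.10 and 0.02, and 0.08 and 0.07 with the trend removed. Hif1a had 67.4 FPKM in si-Lnc-Dpf3/CCR7L and 74.0 FPKM in si-Lnc-Dpf3/Med, against 71.9 FPKM in si-NC/CCR7L and 71.0 FPKM in si-NC/Med. Its ratio of −0.13 under si-Lnc-Dpf3 turned positive with the length and GC trend removed. Of the 20 kept HIF genes and targets, Hif1a among them, 2 were at least 1.5-fold lower (1.29% of all genes were) and none higher. The counts were the same under si-NC, where 1.14% of all genes were lower by that much. Vegfa, the vascular growth factor, had 17.5 FPKM in si-Lnc-Dpf3/CCR7L and 32.4 FPKM in si-Lnc-Dpf3/Med, against 19.0 FPKM in si-NC/CCR7L and 38.6 FPKM in si-NC/Med. Its ratio was −0.85 under si-Lnc-Dpf3 and −0.98 under si-NC, and that of Mxi1, a repressor that competes with MYC for MAX, −0.73 and −0.79.

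Genes of cholesterol synthesis and uptake had mostly positive ratios. Of 24 kept genes, 19 were above 0 under si-Lnc-Dpf3 (44.3% of all genes were) and 21 under si-NC (46.1% of all genes were). The medians were 0.14 and 0.24. None was at 1.5-fold under si-Lnc-Dpf3, and 1, Tm7sf2, was that much higher under si-NC (0.752% of all genes were). Tm7sf2, a sterol reductase, had 12.2 FPKM in si-Lnc-Dpf3/CCR7L and 7.92 FPKM in si-Lnc-Dpf3/Med, against 12.4 FPKM in si-NC/CCR7L and 7.08 FPKM in si-NC/Med, ratios of 0.56 and 0.73. Mvk and Mvd, kinase and decarboxylase of the mevalonate pathway, had ratios of 0.39 and 0.37 under si-Lnc-Dpf3, and 0.08 and 0.23 under si-NC. Cholesterol efflux genes had a median of 0.14 over 8 genes under si-Lnc-Dpf3, or 0.07 with the trend removed, and of 0.02 under si-NC. Of 28 cathepsin and lysosome genes, 1 was at least 1.5-fold higher under si-Lnc-Dpf3 (1.1% of all genes were), a count near that share. This was Ctsh, an aminopeptidase of the lysosome. It had 148 FPKM in si-Lnc-Dpf3/CCR7L and 89.7 FPKM in si-Lnc-Dpf3/Med, against 166 FPKM in si-NC/CCR7L and 109 FPKM in si-NC/Med. Slc46a3, a transporter of the lysosomal membrane, had 8.34 FPKM in si-Lnc-Dpf3/CCR7L and 2.64 FPKM in si-Lnc-Dpf3/Med, against 8.37 FPKM in si-NC/CCR7L and 1.97 FPKM in si-NC/Med.

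Of the inflammatory cytokines kept, none of 25 was at 1.5-fold in either direction in si-Lnc-Dpf3 cells, and 1 was lower in si-NC cells. Over all genes 1.1% were higher by that much and 1.29% lower in si-Lnc-Dpf3 cells, and 1.14% lower in si-NC cells. Counts of 0 or 1 in this list and in the lists that follow here are near those shares. Il12b, the shared subunit of interleukins 12 and 23, had 45.1 FPKM in si-Lnc-Dpf3/CCR7L and 54.8 FPKM in si-Lnc-Dpf3/Med, against 59.2 FPKM in si-NC/CCR7L and 66.1 FPKM in si-NC/Med. Il6 had ratios of −0.17 under si-Lnc-Dpf3 and −0.28 under si-NC. The NF-kappaB list of 20, the interferon-stimulated list of 37, the prostaglandin list of 17 and the Toll-like receptor and lectin list of 25 had none at 1.5-fold under si-Lnc-Dpf3 either. The lowest of the NF-kappaB list was Rel, a subunit of the factor, with 22.1 FPKM in si-Lnc-Dpf3/CCR7L and 33.5 FPKM in si-Lnc-Dpf3/Med, against 26.1 FPKM in si-NC/CCR7L and 29.2 FPKM in si-NC/Med. The ratio of Rel was −0.58 under si-Lnc-Dpf3 and −0.15 under si-NC. Its transcript, of 7466 bases, lies in the longest quintile, which was high in si-Lnc-Dpf3/Med. Early response genes held 1 member at least 1.5-fold higher and 1 lower of 27. Nr4a2, an orphan nuclear receptor, had 2.32 FPKM in si-Lnc-Dpf3/CCR7L and 6.11 FPKM in si-Lnc-Dpf3/Med, against 2.97 FPKM in si-NC/CCR7L and 6.74 FPKM in si-NC/Med, ratios of −1.10 and −0.96. Its relative Nr4a3 had ratios of −0.54 and −0.40, and the phosphatase Dusp2 had 0.63 and 0.51. Stat4, which passes on the interleukin 12 signal, was the only gene of the 21 of SOCS and JAK-STAT at 1.5-fold, with 29.5 FPKM in si-Lnc-Dpf3/CCR7L and 63.2 FPKM in si-Lnc-Dpf3/Med, against 39.6 FPKM in si-NC/CCR7L and 75.3 FPKM in si-NC/Med. The median of that list was 0.02, and −0.06 with equal FPKM totals.

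Several of the largest ratios lay outside these programs. Aif1, a calcium-binding protein that bundles actin, had 33.7 FPKM in si-Lnc-Dpf3/CCR7L and 8.27 FPKM in si-Lnc-Dpf3/Med, against 39.5 FPKM in si-NC/CCR7L and 8.96 FPKM in si-NC/Med, ratios of 1.90 and 2.02. Ccnd1, the cyclin D1 that drives entry into the cell cycle, had 15.8 FPKM in si-Lnc-Dpf3/CCR7L and 6.45 FPKM in si-Lnc-Dpf3/Med, against 14.95 FPKM in si-NC/CCR7L and 5.81 FPKM in si-NC/Med. It was the only member of 17 cyclin and G1 genes at 1.5-fold, where 1.1% of all genes were higher by that much and 1.29% lower under si-Lnc-Dpf3. Gbp2b, a GTPase induced by interferon, had 2.90 FPKM in si-Lnc-Dpf3/CCR7L and 0.60 FPKM in si-Lnc-Dpf3/Med, against 3.36 and 0.91 FPKM in si-NC/CCR7L and si-NC/Med. It passed the filter through its CCR7L libraries, so the count of its list of 15 guanylate-binding and immunity-related GTPases is not set against the background. It is close in sequence to other members, so its level is uncertain. Further genes among the 15 highest were Extl1 (1.25), a glycosyltransferase of heparan sulfate, Dnase1l3 (1.23), a secreted nuclease that digests chromatin, 2200002D01Rik (1.14), Id3 (1.08), an inhibitor of basic helix-loop-helix factors, and Scn4b (1.04), a sodium channel subunit. In si-NC cells the ratios were 1.12 for Extl1, 1.02 for Dnase1l3, 1.33 for 2200002D01Rik, 0.71 for Id3 and 1.35 for Scn4b.

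Among the lowest, Hepacam2, an immunoglobulin family membrane protein, had 0.98 FPKM in si-Lnc-Dpf3/CCR7L and 10.2 FPKM in si-Lnc-Dpf3/Med, against 1.17 FPKM in si-NC/CCR7L and 11.3 FPKM in si-NC/Med, ratios of −2.49 and −2.50. Calcb, a peptide of the calcitonin family, had 5.08 FPKM in si-Lnc-Dpf3/CCR7L and 23.8 FPKM in si-Lnc-Dpf3/Med, against 4.95 FPKM in si-NC/CCR7L and 24.9 FPKM in si-NC/Med. Pdcd1 encodes PD-1, the inhibitory receptor best known from T cells. It had 0.76 FPKM in si-Lnc-Dpf3/CCR7L and 4.48 FPKM in si-Lnc-Dpf3/Med, against 0.69 FPKM in si-NC/CCR7L and 6.35 FPKM in si-NC/Med, ratios of −1.64 and −2.12. Its ligand genes had ratios of −0.04 and −0.01 (Cd274) and 0.04 and 0.09 (Pdcd1lg2). Summed FPKM of 13 T and NK cell markers was 20.9 in si-Lnc-Dpf3/CCR7L and 20.6 in si-Lnc-Dpf3/Med, against 27.1 in si-NC/CCR7L and 25.3 in si-NC/Med. Of these markers 5 passed the filter: Gzmb, Nkg7, Lck, Cd8a and Klrd1. Their ratios under si-Lnc-Dpf3 ran from −0.40 (Klrd1) to 0.15 (Gzmb), and those of Klrd1 and Gzmb under si-NC were −0.36 and 0.10. The T cell receptor genes Cd3d, Cd3e and Cd3g were below 1 FPKM in every library. Satb1, a chromatin organiser, had 5.26 FPKM in si-Lnc-Dpf3/CCR7L and 16.9 FPKM in si-Lnc-Dpf3/Med, against 5.26 FPKM in si-NC/CCR7L and 18.1 FPKM in si-NC/Med. Also low were Ms4a4a (−1.41), a membrane protein with 4 spans, Fgf1 (−1.38), a growth factor, Gls2 (−1.35), a glutaminase, Tmem151b (−1.33) and Rnf157 (−1.31), a ubiquitin ligase. In si-NC cells they had ratios of −1.27 for Ms4a4a, −1.11 for Fgf1, −1.24 for Gls2, −1.55 for Tmem151b and −1.55 for Rnf157.

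By absolute level, FPKM summed over genes was higher by 25997 in si-Lnc-Dpf3/CCR7L than in si-Lnc-Dpf3/Med, and the 5 largest gains, of Ccl22, Tmsb4x, Ftl1, Cd74 and Actb, made up 15.7% of all gains. Tmsb4x, which sequesters actin monomers, gained 1673 FPKM under si-Lnc-Dpf3 and 1012 under si-NC, and Actb, the cytoplasmic beta actin, gained 713 and 319. Ftl1, the ferritin light chain, gained 1277 FPKM under si-Lnc-Dpf3, against a change of −254 FPKM under si-NC. Tmsb4x and Ftl1 have short transcripts, of 768 and 968 bases, in the quintile that was low in si-Lnc-Dpf3/Med. How much of their gains goes with length or with the FPKM totals was not tested. The 5 largest losses were smaller, at −233 FPKM for S100a9, −210.1 for Ccl5, −185 for Actg1, −177 for Chil3 and −105 for Cytip. Ccl5 had a larger change of −977 FPKM under si-NC. Of the others, S100a9 and Chil3 had changes of 214 and 109.7 FPKM in the other direction under si-NC. Cytip, a regulator of adhesion in lymphocytes and dendritic cells, had 200.2 FPKM in si-Lnc-Dpf3/CCR7L and 305 FPKM in si-Lnc-Dpf3/Med, against 232 FPKM in si-NC/CCR7L and 353 FPKM in si-NC/Med, a ratio of −0.60 under both.

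Some broad gene groups had small ratios of opposite sign under the siRNAs. Over all genes kept, 44.3% were above 0 under si-Lnc-Dpf3 and 46.1% under si-NC. Cytosolic ribosomal proteins were above 0 in 48 of 52 genes under si-Lnc-Dpf3 and in 7 of 52 under si-NC, with medians of 0.12 and −0.07. They are short, with a median transcript of 869 bases, and with the length and GC trend removed the si-Lnc-Dpf3 median was −0.01 and 24 were above 0. Mitosis and replication genes ran the other way, with 3 of 34 above 0 under si-Lnc-Dpf3 and 18 under si-NC, medians of −0.10 and 0.00, and −0.07 under si-Lnc-Dpf3 with the trend removed. Mki67, a marker of cycling cells, was lowest of them, with 38.5 FPKM in si-Lnc-Dpf3/CCR7L and 50.8 FPKM in si-Lnc-Dpf3/Med, against 36.8 FPKM in si-NC/CCR7L and 37.3 FPKM in si-NC/Med. The transcript of Mki67, of 10061 bases, lies in the longest quintile, which was high in si-Lnc-Dpf3/Med. Genes of the TCA cycle and respiratory chain were above 0 in 25 of 33 under si-Lnc-Dpf3 and 15 under si-NC, with medians of 0.09 and −0.01, and −0.01 under si-Lnc-Dpf3 with the trend removed. Chemokine ligands had medians of 0.08 under si-Lnc-Dpf3 and −0.06 under si-NC over 18 genes, and −0.01 under si-Lnc-Dpf3 with the trend removed. Xcl1 alone passed 1.5-fold there, with 1.84 FPKM in si-Lnc-Dpf3/CCR7L and 0.52 FPKM in si-Lnc-Dpf3/Med, about 19 and 5 reads. For the writers, readers and erasers of the m6A mark on RNA, 5 of 16 were above 0 under si-Lnc-Dpf3 and 8 under si-NC. Their medians were −0.15 and 0.00, and 0.00 under si-Lnc-Dpf3 with the trend removed; their median transcript is 4236 bases. Of 224 named genes with a transcript length, 83 had a trend-removed ratio that differed from the ratio given here by more than its counting error.

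**Figure D4:**
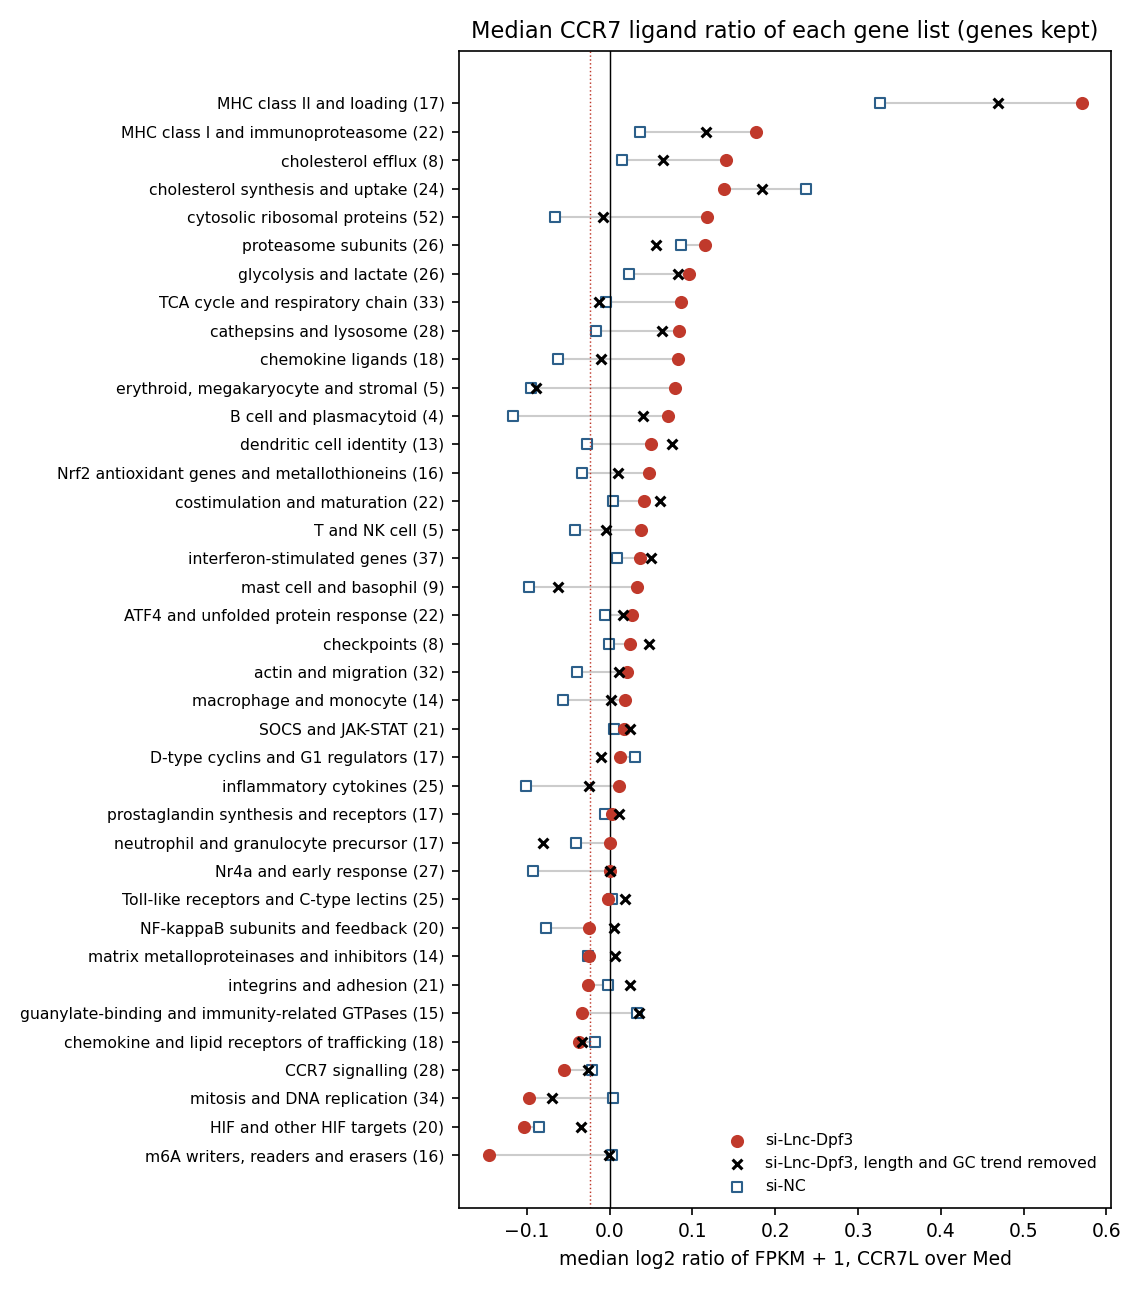
Median log2 ratio of FPKM + 1, CCR7L over Med, of each gene list (rows, with the number of genes kept) under si-Lnc-Dpf3 (red circles), the same with the length and GC trend removed (crosses) and under si-NC (open blue squares); the dotted line is the median of all genes under si-Lnc-Dpf3. Class II genes lie farthest right, at 0.57, 0.47 and 0.33, and the ribosomal list changes side between the red circle (0.12), the cross (−0.01) and the square (−0.07); the apolipoprotein L list is not drawn.

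Few genes had a CCR7L ratio that differed between the siRNAs by 2-fold or more. Under si-Lnc-Dpf3 the ratio was higher by that much in 7 genes (0.0634%) and lower in 9 (0.0815%), and 9 of these 16 rows held predicted transcripts alone. At 1.5-fold, 49 genes (0.444%) had the higher ratio under si-Lnc-Dpf3 and 41 (0.371%) the lower one. Of the 53 genes at 2-fold in si-Lnc-Dpf3 cells, 10 were under 1.5-fold in the same direction in si-NC cells, and all 10 were rows with predicted transcripts alone, a kind that makes up 144 of the 11041 genes kept. They were LOC102638183, LOC108167440, LOC100862456, LOC102641086, LOC105247075, Gm10698, Gm3650, Gm13249, Gm42052 and LOC108167809. LOC100862456 and LOC102641086 hold identical values: 0.15 FPKM in si-Lnc-Dpf3/CCR7L and 3.74 FPKM in si-Lnc-Dpf3/Med, against 4.51 and 6.42 FPKM in si-NC/CCR7L and si-NC/Med. Near-identical copies also gave the most extreme ratios of the comparison. Tmem254c had 18.1 FPKM in si-Lnc-Dpf3/CCR7L and 0.76 FPKM in si-Lnc-Dpf3/Med, while its copy Tmem254b had 1.43 FPKM and 15.4 FPKM. In si-NC/CCR7L and si-NC/Med, Tmem254c had 19.27 and 0.75 FPKM and Tmem254b 0.48 and 19.28 FPKM. Summed over the 3 copies, the values were 19.97 FPKM in si-Lnc-Dpf3/CCR7L and 16.3 FPKM in si-Lnc-Dpf3/Med, against 19.9 FPKM in si-NC/CCR7L and 20.3 FPKM in si-NC/Med, so the change of either copy alone is uncertain. Rpl37rt, a retrotransposed copy of the ribosomal gene Rpl37, had 29.0 FPKM in si-Lnc-Dpf3/CCR7L and 75.4 FPKM in si-Lnc-Dpf3/Med, while both genes together had 279 FPKM and 261 FPKM. Gm40814, also among the 15 lowest at −1.36, is known from predicted transcripts alone.

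Among genes that averaged 5 FPKM or more, the differences of the log2 ratios, si-Lnc-Dpf3 minus si-NC, ran from −1.86 for LOC100862446 to 1.11 for Rsc1a1. Rsc1a1 lies within the span of Ddi2 in RefSeq and ends with it, so reads could be divided between these genes and its values are uncertain. The lowest 8 further held LOC105247075 (−1.76), LOC102638183 (−1.0), LOC108167440 (−0.88), Gm3244 (−0.81), the histone gene Hist1h2ao (−0.73), Clec4b2 (−0.73), a C-type lectin, and 1700066C05Rik (−0.73). After Rsc1a1 the highest were Tmem254b (1.02), Gapdh-ps15 (0.82), Gm10698 (0.78), Dynlt1f (0.78), Rnaset2b (0.73), Dcstamp (0.70) and Alkbh7 (0.65). Dynlt1f, Rnaset2b, Hist1h2ao and Clec4b2 belong to families with close paralogs, so their values are uncertain. Dcstamp, a membrane protein needed for the fusion of osteoclasts and macrophages, had 11.3 FPKM in si-Lnc-Dpf3/CCR7L and 9.30 FPKM in si-Lnc-Dpf3/Med, against 10.6 FPKM in si-NC/CCR7L and 14.9 FPKM in si-NC/Med. For Dcstamp the CCR7L libraries lay close and the Med libraries apart. Dpf3, the protein-coding neighbour for which lnc-Dpf3 is named, was at 1.35 FPKM in si-Lnc-Dpf3/CCR7L and 0.89 FPKM in si-Lnc-Dpf3/Med, against 2.03 FPKM in si-NC/CCR7L and 0.93 FPKM in si-NC/Med. Its log2 ratio was 0.31 under si-Lnc-Dpf3 and 0.65 under si-NC, and counting error alone puts the si-Lnc-Dpf3 FPKM ratio of 1.52 between 0.991 and 2.32.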

How the data were processed

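Total RNA was extracted with TRIzol and sequenced on a BGISEQ-500 instrument, according to the protocols in the labels. The authors deposited 1 table of FPKM per gene with 2 decimals; Bowtie2, RSEM and the build GRCm38 are named in the submitters' processing notes, without versions. Column names give the siRNA and the stimulation, and 0 columns of values were left unused. Reads estimated from FPKM steps were not whole for enough values (53.5% to 60.1% within 0.1 of a whole read, 20% by chance) for a count test. The depths and counting intervals given above rest on the same estimate and are approximate.

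Ratios are log2 of FPKM plus a pseudocount of 1, computed with Python 3.11.15, numpy 2.4.6, pandas 2.3.3 and scipy 1.17.1, over genes that averaged 1 FPKM or more. Genes numbering 17892 matched RefSeq by Entrez number, and 26 symbols stored as dates were restored. Transcript length and GC content are medians over GENCODE transcripts. The trend of each log2 ratio was removed as the median of 20 bins of length and then of GC content. The script was tested on simulated data.

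Named genes are the 15 highest and 15 lowest ratios, the 5 largest gains and losses in FPKM, the 8 highest and lowest differences between the siRNAs at a mean of at least 5 FPKM, and up to 5 members per list with the largest absolute ratio, plus Ccr7, Dpf3, Hif1a and Cd83. Other genes named were chosen after their values were seen. The 39 lists and the comparison were chosen with earlier results of these data known; 8 of their 858 entries matched no row. Pseudocount, filter, scaling, trend removal and predicted rows were varied. Replicates left out in turn were not possible with 1 library in each group.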

Additional observations from a re-analysis of the deposited data

Results flagged for a closer look

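A ratio of CCR7L over Med that points one way under si-Lnc-Dpf3 and the other way under si-NC was looked for among genes and lists; these differences were not tested, since each group has 1 library. LOC105247075, known from predicted transcripts alone, had a log2 ratio of −1.43 under si-Lnc-Dpf3 and 0.33 under si-NC, a difference of −1.76. LOC100862446, of the same kind, had −0.64 under si-Lnc-Dpf3 and 1.22 under si-NC, a difference of −1.86. Rsc1a1, a regulator of the glucose transporter SGLT1, had 6.74 FPKM in si-Lnc-Dpf3/CCR7L and 4.46 FPKM in si-Lnc-Dpf3/Med, against 3.91 FPKM in si-NC/CCR7L and 6.48 FPKM in si-NC/Med, a difference in log2 ratio of 1.11. It overlaps Ddi2, so these values are uncertain.

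In the gene lists the medians differed by 0.145 for chemokine ligands, 0.184 for cytosolic ribosomal proteins, 0.187 for B cell and plasmacytoid markers and 0.174 for erythroid, megakaryocyte and stromal markers, each positive under si-Lnc-Dpf3 and negative under si-NC. Only 4 B cell and plasmacytoid markers and 5 erythroid, megakaryocyte and stromal markers were kept. With the length and GC trend removed, the si-Lnc-Dpf3 medians of the chemokine, ribosomal and erythroid lists were −0.01, −0.01 and −0.09, and that of the B cell list was 0.04.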

How the results depend on the processing

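No paired analysis was possible because each group has 1 library. With 1 library in each group, every count describes these 4 libraries, and the depth limits ratios of genes near 1 FPKM. At a pseudocount of 0.1 the counts were 52 higher and 63 lower at 2-fold, 203 higher and 226 lower at 1.5-fold, 66 at 2-fold or more in the same direction under both siRNAs and 44 differing by 2-fold between the siRNAs, against 21, 32, 122, 142, 33 and 16. At a mean of at least 5 FPKM they were 12, 19, 70, 80, 20 and 5. With equal FPKM totals 13 genes were 2-fold higher. Without the filter 32 genes differed between the siRNAs by 2-fold. Among genes with a transcript length, which leaves out every row with predicted transcripts alone, 7 did, and 4 did once the length and GC trend was removed as well. Without predicted and identical rows 7 did. These last 3 alternatives were chosen after seeing the data. The median of the ribosomal list was −0.008 with that trend removed, in place of 0.118. Median-ratio scaling moved no count by over 1.5 times. The class II, class I, glycolysis, cholesterol, proteasome and mitosis medians kept their sign under every alternative run.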
